A study of Homo sapiens with 4 samples.

Results

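The ADAM and ADAMTS proteases comprise 45 genes here, out of 19554 genes measured on Affymetrix Human Gene ST arrays. They were taken by name, as every gene called ADAM with a number or starting with ADAMTS, and fell into 21 ADAM, 19 ADAMTS and 5 ADAMTSL genes covered by 46 probe sets. The arrays measured total RNA from U87MG, a long-used human glioma cell line. Of the 4 samples, 2 came from clone 28, which carries a construct for wild-type CD13/APN (membrane alanyl-aminopeptidase, the product of ANPEP) whose name includes EGFP. The other 2 came from clone 25, with the L243P form of the same enzyme, which the labels call inactive. The name of that construct also includes EGFP. Growth was described as comparable, and the 2 replicates of each genotype came from separate experiments. Each genotype is 1 clone, so the effect of the enzyme and differences between clones cannot be told apart. The p-values rest on repeat experiments with the same clone.

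ADAM proteins are membrane-anchored metalloproteases that cut the outer parts of neighbouring surface proteins, a release known as shedding, and some of them have lost the catalytic site and act in adhesion. ADAMTS proteins are secreted relatives with thrombospondin repeats that act on matrix proteoglycans, procollagens and other extracellular proteins. ADAMTSL proteins keep the repeats but have no protease domain, and several bind the fibrillin microfibrils of the matrix. In gliomas the sheddases are known for releasing growth factor ligands and cutting Notch, and the secreted proteases for cutting the hyaluronan-binding proteoglycans of brain matrix.

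Values are normalized intensities on a linear scale, with array medians of 46 to 50. Changes are differences in log2 intensity, L243P minus wild type, each with its standard error (SE) from limma, a linear model fitted over all genes, and a gene was called at an adjusted p of at most 0.05. Array correlations were 0.993 and 0.995 within the groups and between 0.990 and 0.991 across them. The tables hold no detection calls, and 15 of the 45 members were below an intensity of 32 on all arrays, as were 5133 of the 19554 genes. No gene was left out for low intensity. Probe sets differ in how strongly they respond, so an intensity is compared across samples and not across genes. The summed glial and glioma markers were at 9365 and 10998 with wild type and 13608 and 15096 with L243P, where CHI3L1 alone went from 1161 and 1081 to 4186 and 4636. Among them, VIM was at 6134 to 8297, while S100B was at 17 to 20, SOX2 at 31 to 44, and GFAP was not analysed here. The summed endothelial markers were at 182 to 202 with wild type and 197 to 214 with L243P, and the summed germ cell markers at 196 to 203 and 177 to 226. Of 6 endothelial markers, TEK and ESAM had both L243P samples above both wild-type samples, and CDH5 had them below. Among all genes these shares were 17.1% and 20.9%. No endothelial marker passed the test used below, and PECAM1 was not analysed here.

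**Figure D1:**
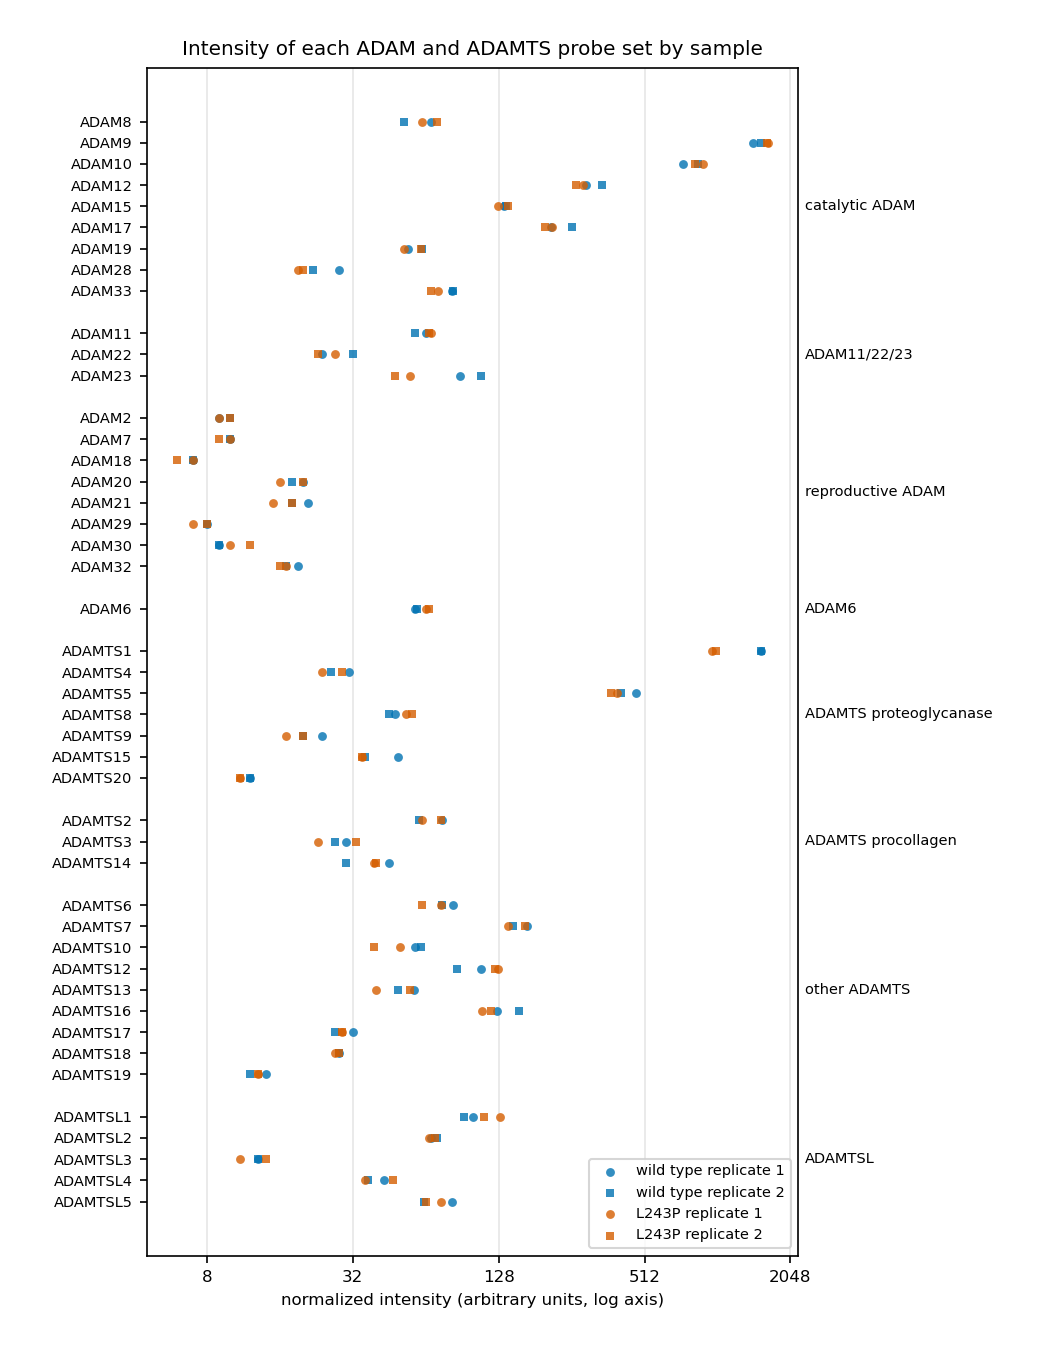
Normalized intensity (log axis, arbitrary units) of the probe set of each of the 45 genes in each sample, wild type in blue and L243P in orange, circles for replicate 1 and squares for replicate 2. ADAMTS1 and ADAM23 show both orange points well to the left of both blue ones, and the reproductive ADAM genes stay between 6 and 21 in every sample.

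Of the 45 genes, ADAMTS1 fell in the L243P clone and none rose. Among all genes 0.967% were called, 0.537% lower and 0.43% higher, so 1 call in 45 is near the background. ADAM23 had the largest difference of the 45 but did not pass the test. Both L243P samples were below both wild-type samples for 11 members and above them for 7, leaving 27 with overlapping groups. Among all genes 38% had no overlap, 20.9% below and 17.1% above. In all, 5 members had an unadjusted p under 0.05 (limma), where 13.5% of all genes did. The median log2 change of the members was -0.07, beside -0.02 over all genes, with 31 below 0, 13 above 0 and ADAM2 at 0.00. Over all 19554 genes, 10590 changes were below 0 and 8542 above. The members' median was 0.00 without L243P replicate 1. In these samples of whole cultures, fewer cells that express a gene and less RNA per cell cannot be told apart.

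**Figure D2:**
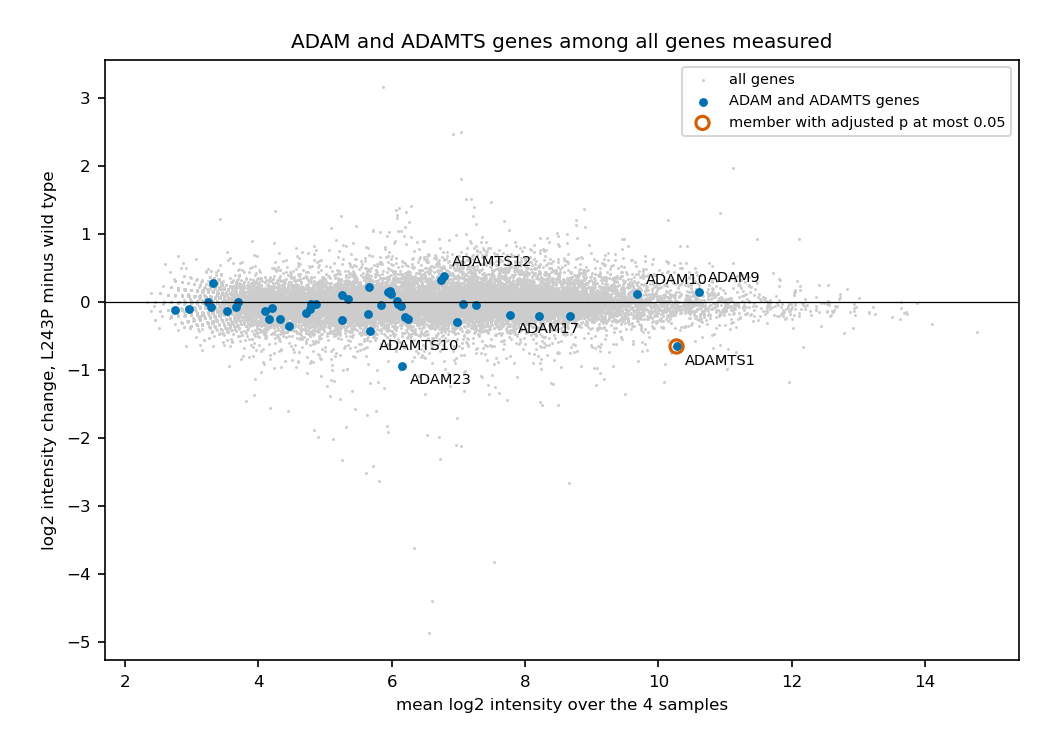
Log2 change (L243P minus wild type) against mean log2 intensity over the 4 samples, with all 19554 genes in grey and the 45 ADAM and ADAMTS genes in blue. ADAMTS1, ringed in orange, is the member with an adjusted p of at most 0.05, and apart from it and ADAM23 the blue points lie within 0.43 of the zero line.

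ADAMTS1 is a secreted protease that cuts versican and restrains the growth of vessels. Both wild-type samples were near the same level, 1552 and 1548, and the L243P samples were at 968 and 1006. The gap between the groups was many times the gap within either of them. The log2 change was -0.65 (SE 0.07, 95% interval -0.82 to -0.48), so the wild-type level was 1.57-fold higher (limma, adjusted p = 0.0288). The gene was bright in every sample, at or above 96.4% to 98% of the probe sets. The authors' deposited table gives a fold change of -1.6 and a proportion of false positives (pfp) of 0.28, above the limit of 0.15 the authors set. The call was lost with limma's default prior (adjusted p = 0.26), where 0 genes of all were called and 2785 had an unadjusted p under 0.05. It was also lost without any 1 of the arrays, where 0 genes of all were called too, while its log2 change stayed between -0.68 and -0.62.

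ADAMTS5, an aggrecanase, is the next gene measured after ADAMTS1 on chromosome 21. It was at 472 and 408 with wild type and 394 and 372 with L243P, so that the L243P samples were both lower, by less than the gap between the wild-type replicates. Its log2 change was -0.20 (SE 0.10, 95% interval -0.44 to 0.05, limma adjusted p = 0.538). Over the 10 measured genes on each side of ADAMTS1 the median change was -0.08, and 13 of these 20 genes were below 0. JAM2, a junction adhesion molecule, was the one called neighbour (log2 change -1.26, limma adjusted p = 0.0465), at 92 and 90 with wild type and 33 and 44 with L243P. After the median change of its neighbours was subtracted, ADAMTS1 was at -0.57 (limma, adjusted p = 0.0488).

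**Figure D3:**
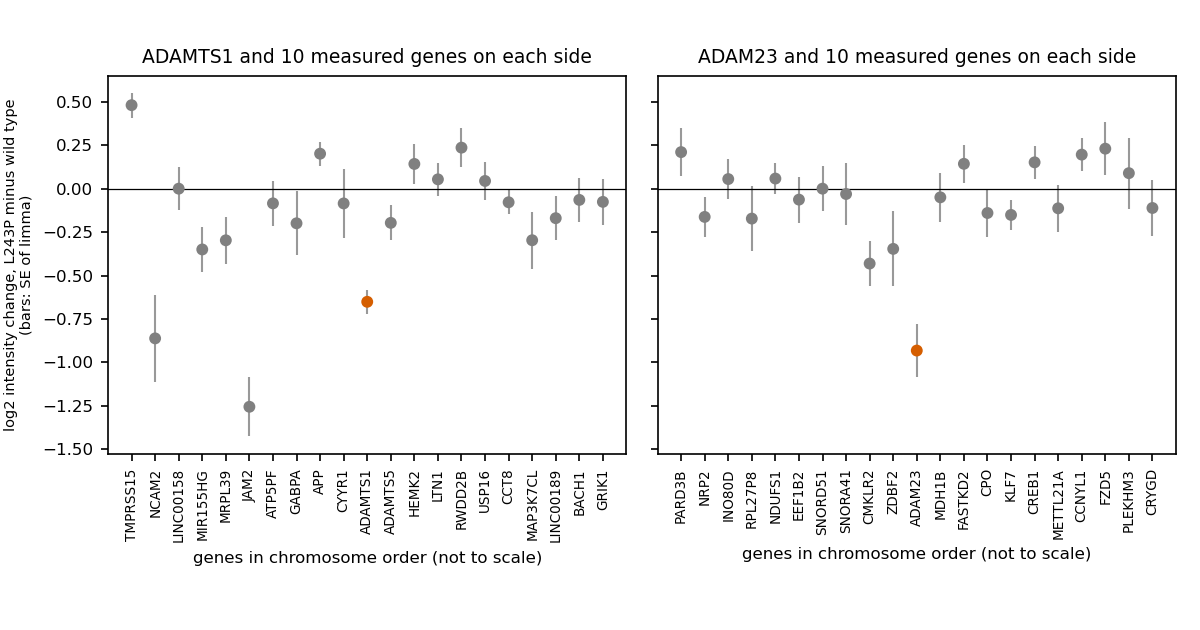
Log2 change (L243P minus wild type, bars show the SE) of ADAMTS1 and of ADAM23, in orange, and of the 10 measured genes on each side in chromosome order, in grey. The neighbours of ADAMTS1 run from -1.26 (JAM2) to 0.48 (TMPRSS15) and those of ADAM23 from -0.43 (CMKLR2) to 0.23 (FZD5).

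The other proteases of proteoglycans did not pass the test. ADAMTS4, the second classical aggrecanase, was dim, at 31 and 26 with wild type and 24 and 29 with L243P, with overlapping groups. ADAMTS8 was at 48 and 45 against 53 and 56, ADAMTS15 at 49 and 36 against 35 in both L243P samples, and ADAMTS9 at 24 and 20 against 17 and 20. ADAMTS20 was near the bottom of the scale, at 12 in both wild-type and 11 in both L243P samples. In the 7 genes of the group, ADAMTS1 included, 6 log2 changes were below 0, with a median of -0.20. Over all genes, 10590 of 19554 changes were below 0, with a median of -0.02. In this group 3 genes were below an intensity of 32 on all arrays.

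ADAM23 belongs with ADAM11 and ADAM22 to the members without a working catalytic site, surface proteins known in brain as receptors for the secreted LGI proteins. ADAM23 was at 89 and 108 with wild type, against 55 and 48 with L243P. Both L243P samples were well below both wild-type samples. The log2 change of -0.93 (SE 0.15, 95% interval -1.31 to -0.56) makes the wild-type level 1.91-fold higher (limma, unadjusted p = 0.000918, adjusted p = 0.0761). ADAM23 passed the test with each array centred on its median (limma, adjusted p = 0.00601) and without the dimmer 50% of the rows (0.0272). These settings called 504 of 19554 and 442 of 11937 genes, against 189 of 19554 in the fit reported. ADAM23 did not pass with quantile normalization, a pseudocount of 16, the mean of probe sets or the neighbour shift subtracted (limma, adjusted p from 0.077 to 0.107). With limma's default prior, where 0 genes of all were called, its adjusted p was 0.264. In the authors' deposited table its fold change is -1.9 and its pfp 0.0961, within their limit, and it is the one member in their deposited summary of 224 genes, at a fold of -1.91. Among all probe sets, 0.949% were within that limit. Of its 20 neighbours on chromosome 2, none was called and the median change was -0.04.

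ADAM22, the nearest relative in function, was at 24 and 32 with wild type and 27 and 23 with L243P, and ADAM11 at 64 and 58 against 67 and 66. Their log2 changes were -0.15 (95% interval -0.61 to 0.31) and 0.13 (95% interval -0.18 to 0.44). None of the 4 LGI ligands passed, and their median log2 change was 0.07, or -0.01 without wild-type replicate 2 and -0.09 without L243P replicate 2. LGI2 had the lowest p of them (log2 change -0.50, limma adjusted p = 0.217). It was at 32 and 33 with wild type and 24 and 22 with L243P. The 20 genes around it on its chromosome had a median change of -0.51, near the change of LGI2 itself. With the neighbour shift subtracted for each gene, none of the 4 ligands passed and their median log2 change was 0.12. The part of this shift in the LGI2 value was not tested separately. LGI1 was at 20 and 16 against 22 and 18, and LGI4 at 27 and 23 against 24 and 30.

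The start regions of these genes are shown because ADAM23 and ADAM22 both have promoters dense in CpG, the dinucleotide at which DNA is methylated, while those of the reproductive ADAM genes are mostly poor in it. Each window runs from 250 bases before to 50 bases after the start of the RefSeq gene in GRCh38.p14, 5′ to 3′ on the gene's strand, with each CpG in capitals. ADAM23 is at chr2:206443282-206443581 (+) with 41 CpG, ADAM22 at chr7:87934001-87934300 (+) with 32, and ADAM20, a testis-expressed member, at chr14:70534955-70535254 (-) with 0.
ADAM23: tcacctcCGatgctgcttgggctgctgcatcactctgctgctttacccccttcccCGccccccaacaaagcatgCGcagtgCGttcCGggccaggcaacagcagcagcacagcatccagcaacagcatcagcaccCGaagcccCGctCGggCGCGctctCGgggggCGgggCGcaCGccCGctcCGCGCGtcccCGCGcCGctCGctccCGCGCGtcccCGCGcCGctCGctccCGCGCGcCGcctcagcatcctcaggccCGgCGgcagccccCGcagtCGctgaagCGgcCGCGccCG
ADAM22: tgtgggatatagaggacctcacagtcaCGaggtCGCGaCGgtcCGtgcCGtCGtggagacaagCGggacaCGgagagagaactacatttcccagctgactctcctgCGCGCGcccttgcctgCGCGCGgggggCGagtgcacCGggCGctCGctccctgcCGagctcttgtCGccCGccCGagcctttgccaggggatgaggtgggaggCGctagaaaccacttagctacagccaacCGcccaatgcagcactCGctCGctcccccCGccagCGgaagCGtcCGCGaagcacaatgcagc
ADAM20: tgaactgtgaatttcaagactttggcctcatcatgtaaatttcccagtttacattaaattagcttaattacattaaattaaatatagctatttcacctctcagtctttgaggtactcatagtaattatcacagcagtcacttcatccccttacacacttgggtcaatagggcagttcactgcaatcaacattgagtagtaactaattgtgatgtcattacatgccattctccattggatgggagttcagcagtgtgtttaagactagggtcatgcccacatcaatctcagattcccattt
Of the 45 members, 29 were matched by symbol to a RefSeq promoter, and ADAMTS1, ADAMTS5 and ADAM9 were not among them. The median count of CpG was 29 over the 29 members and 14 over 27305 promoters of all kinds. It was 31.5 in 6 catalytic ADAM genes and 2.5 in 4 reproductive ones. ADAMTSL3 (48) and ADAMTS2 (47), among others, had more CpG than ADAM23, so this density is not particular to ADAM23 and ADAM22. The GC box GGGCGG, searched on both strands, was in 22 of the 29 windows (75.9%) against 44.6% of all promoters, and in none of the 4 reproductive ones. The letters TATAAA, also on both strands, were in 3 of the 29 windows (10.3%), against 12% of all. CpG methylation was not measured in these samples.

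The catalytic ADAM proteases did not pass the test in either direction. ADAM10, which cuts Notch and many adhesion molecules, was at 737 and 850 with wild type and 891 and 824 with L243P, with overlapping groups. Its log2 change was 0.11 (SE 0.10), with a 95% interval from -0.12 to 0.35 (limma, adjusted p = 0.761). ADAM17, the enzyme that releases TNF and several EGF-family ligands, was at 211 and 258 against 213 and 198. Its groups overlapped, with a log2 change of -0.18 (SE 0.12, 95% interval -0.49 to 0.12, limma adjusted p = 0.672).

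ADAM9, a widely expressed sheddase, was at 1439 and 1542 with wild type and 1661 and 1635 with L243P. The L243P samples were both higher, but the log2 change was small, at 0.15 (SE 0.07, 95% interval -0.03 to 0.33, limma adjusted p = 0.532). ADAM12, a protease linked to muscle and tumour stroma, was at 293 and 342 against 284 and 268. The L243P samples were lower by a log2 change of -0.20 (SE 0.11, 95% interval -0.46 to 0.06, limma adjusted p = 0.569). ADAM15, which carries an integrin-binding motif, was at 135 and 137 against 127 and 140. Its log2 change of -0.03 (95% interval -0.29 to 0.23) lay within the spread of the L243P replicates.

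ADAM33 was at 82 and 83 with wild type and 72 and 67 with L243P, and ADAM28 at 28 and 22 against 19 and 20. For both, the L243P samples were lower without passing (limma, adjusted p = 0.51 and 0.497). ADAM8, known from leukocytes, was at 67 and 52 against 62 and 71, and ADAM19 at 54 and 62 against 52 and 61, each with overlapping groups.

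The ADAM genes known from testis and epididymis, ADAM2, ADAM7, ADAM18, ADAM20, ADAM21, ADAM29, ADAM30 and ADAM32, were between 6 and 21 on every array. None passed the test. Among all genes 38% had no overlap between the groups, and here the groups overlapped in 7 of the 8. The exception was ADAM30, at 9 in both wild-type and 10 and 12 in the L243P samples, where the values are rounded to whole numbers and 1 unit is a large step. ADAM6, annotated in RefSeq as a transcribed pseudogene, was read by a pair of probe sets. They were at 58, 59, 64 and 66 and at 19, 18, 19 and 21 in wild-type replicates 1 and 2 and L243P replicates 1 and 2. Their log2 changes of 0.15 and 0.11 had the same direction.

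Of the ADAMTS genes with other or less known substrates, 3 of 9 had both L243P samples below both wild-type samples and 1 had them above, beside the 20.9% and 17.1% of all genes. ADAMTS12, which cuts the cartilage protein COMP, was at 108 and 86 with wild type and 127 and 124 with L243P. Both L243P samples were higher, with a log2 change of 0.38 (SE 0.14, 95% interval 0.03 to 0.73) that did not pass (limma, adjusted p = 0.382). ADAMTS10, which binds fibrillin, was at 58 and 61 against 50 and 39. Its log2 change of -0.43 (SE 0.16, 95% interval -0.83 to -0.03) did not pass either (limma, adjusted p = 0.39). ADAMTS16 was at 126 and 155 against 109 and 119, and ADAMTS6 at 83 and 75 against 74 and 62. ADAMTS7, a relative of ADAMTS12 with the same substrate, was at 167 and 147 against 140 and 164, and its log2 change of -0.05 (95% interval -0.36 to 0.26) was within the replicate spread.

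ADAMTS13, the protease of von Willebrand factor, was at 57 and 49 with wild type and 40 and 55 with L243P. ADAMTS17, ADAMTS18 and ADAMTS19 had overlapping groups and were at 27 to 32, 27 to 28 and 12 to 14. The procollagen proteases ADAMTS2, ADAMTS3 and ADAMTS14, which trim the amino ends of fibrillar collagens, also overlapped between the groups, with log2 changes from -0.05 to 0.10. ADAMTS14 had the widest error of the members (SE 0.21), with 45 and 30 in the wild-type replicates.

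Among the ADAMTSL genes, ADAMTSL1, whose product is also called punctin, was at 100 and 92 with wild type and 130 and 111 with L243P. Both L243P samples were higher, with a log2 change of 0.32 (SE 0.13, 95% interval 0.01 to 0.64) that did not pass (limma, adjusted p = 0.411). A second probe set, listed under the older name C9orf94 and not counted by the naming rule, is matched to this gene by RefSeq. With the mean of both probe sets the log2 change of ADAMTSL1 was smaller, at 0.23 (limma, adjusted p = 0.591). The other members of this group overlapped between the clones. ADAMTSL2 was at 66 to 71, ADAMTSL3 at 11 to 14, ADAMTSL4, linked to lens displacement when mutated, at 36 to 47, and ADAMTSL5 at 63 to 82.

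**Figure D4:**
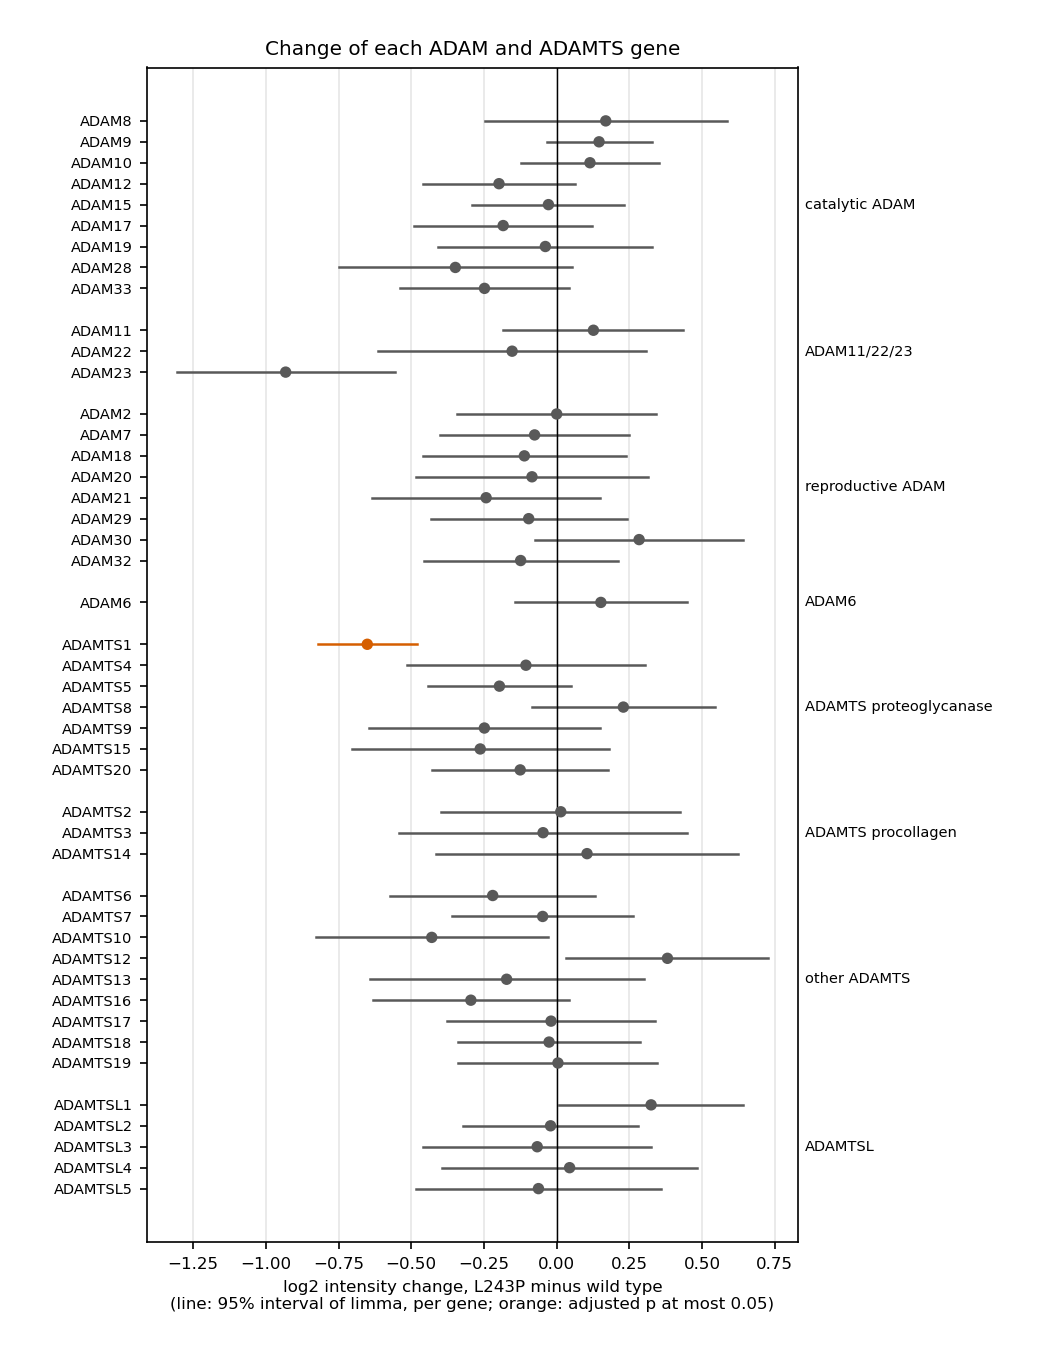
Log2 change (L243P minus wild type) of each of the 45 genes with its 95% interval from limma, ordered by role, with the gene that passed the test in orange. The intervals of ADAMTS1, ADAM23 and ADAMTS10 lie below 0, those of ADAMTS12 and ADAMTSL1 above 0, and all others include 0.

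The lists of inhibitors, maturation genes, substrates and microfibril genes were chosen with earlier results of these data known. Their counts beside the shares of all genes are a description, not a test. Of 7 inhibitors of these enzymes, TIMP2, which inhibits mainly matrix metalloproteases, rose and none fell, beside 0.43% and 0.537% of all genes. The median log2 change was 0.10. That median was 0.25 without L243P replicate 1 and 0.48 without the dimmer 50% of the rows, and 2 inhibitors were called with median centring and without the dimmer rows. TIMP2 was at 551 and 524 with wild type and 956 and 893 with L243P, so the log2 change was 0.78 (SE 0.08, limma adjusted p = 0.0246). TIMP1, TIMP4 and TIMP3, the chief inhibitor of ADAM17 and the aggrecanases, were named after their values were seen. TIMP3 was at 174 and 231 against 270 and 288 (log2 change 0.48, limma adjusted p = 0.285). TIMP4 was at 210 and 204 against 329 and 307 (log2 change 0.62, limma adjusted p = 0.0528), just short of the threshold. TIMP1 overlapped between the groups, at 4327 and 4147 against 4109 and 4339.

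None of 16 genes for maturation and trafficking passed, with a median log2 change of -0.04, or 0.0003 without wild-type replicate 1. PCSK5, a proprotein convertase, was at 35 and 33 with wild type and 20 and 24 with L243P (log2 change -0.63, limma adjusted p = 0.176). TSPAN17 and TSPAN5, tetraspanins that carry ADAM10 to the surface, were at 231 and 241 against 197 and 200 and at 189 and 161 against 145 and 148 (limma, adjusted p = 0.355 and 0.49). The groups overlapped for FURIN, which activates many ADAM precursors, for RHBDF1, which escorts ADAM17, and for LRP1, an uptake receptor of the aggrecanases, with log2 changes between -0.06 and 0.05; these were named after their values were seen.

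Of 39 membrane proteins known to be shed by ADAM proteases, 2 fell and none rose, beside 0.537% and 0.43% of all genes. The median log2 change was -0.06, and in the alternatives it ran from -0.10 without L243P replicate 2 to -0.03 with median centring. With the neighbour shift subtracted 1 was called, since MET was then at an adjusted p of 0.0548 (limma). EREG (epiregulin, an EGF receptor ligand) fell from 328 and 291 to 124 and 121, a log2 change of -1.33 (SE 0.10, limma adjusted p = 0.0124). MET, the receptor of hepatocyte growth factor, fell from 1080 and 1130 to 745 and 703, a log2 change of -0.61 (SE 0.08, limma adjusted p = 0.0418). Both were lower in each L243P sample than in either wild-type sample.

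Among 17 substrates of ADAMTS proteases, a list chosen with earlier results known, 1 rose and 2 fell, beside 0.43% and 0.537% of all genes. The median log2 change was -0.07. FN1 (fibronectin) rose from 2106 and 2040 to 4006 and 3910 (log2 change 0.93, limma adjusted p = 0.0112). TFPI2, a protease inhibitor of the matrix that ADAMTS1 can cut, fell from 2264 and 2318 to 1159 and 1309 (log2 change -0.90, SE 0.08, limma adjusted p = 0.0198). DCN (decorin) fell from 40 and 36 to 13 and 12, in the dim range (limma, adjusted p = 0.015). VCAN, which encodes versican and was named after its values were seen, was at 279 and 320 against 316 and 312, with overlapping groups.

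Among 10 genes of the microfibrils and of proteins associated with them, 2 fell and none rose, beside 0.537% and 0.43% of all genes. The median log2 change was -0.10. FBN2 (fibrillin 2) fell from 82 and 85 to 34 and 40 (log2 change -1.18, SE 0.14, limma adjusted p = 0.0375). LTBP1, a latent TGF-beta binding protein, fell from 728 and 667 to 470 and 443 and was just inside the threshold (limma, adjusted p = 0.05). LTBP1 did not pass with quantile normalization, a pseudocount of 16, the mean of probe sets or the neighbour shift subtracted (limma, adjusted p from 0.0514 to 0.064). The median of the list was 0.06 without wild-type replicate 1, and leaving out wild-type replicate 2 put it at -0.27. FBN1, named after its values were seen, was at 632 and 595 against 715 and 634. DCN is also on the list of fibroblast markers, whose sum was 1133 and 1177 with wild type and 1105 and 1089 with L243P. COL1A2 made up most of this sum, which hides changes in both directions. Both L243P samples were below both wild-type samples for 3 of 6 markers and above for 1, beside 20.9% and 17.1% of all genes. LUM was at a log2 change of -0.46 and COL1A1 at 0.42, and neither passed the test. PDGFRB was not analysed here. The median of the ADAMTS substrates was 0.03 without wild-type replicate 1 and 0.04 without L243P replicate 1. The summed myeloid markers were 2076 and 2017 against 2536 and 2714, nearly all of it CD68, while PTPRC was at 8 to 9. The part of these shifts in the results was not tested.

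**Figure D5:**
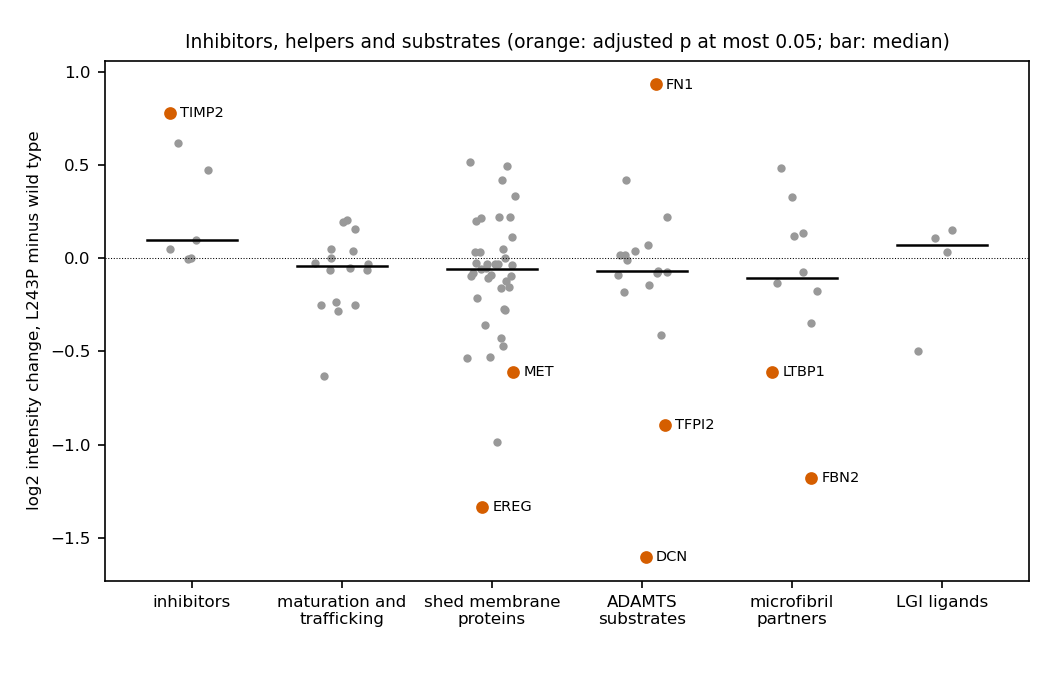
Log2 change (L243P minus wild type) of each measured gene in the lists of inhibitors, maturation and trafficking genes, shed membrane proteins, ADAMTS substrates, microfibril partners and LGI ligands, with the median as a bar and genes that passed the test in orange with their names. TIMP2 and FN1 rose, and EREG, MET, DCN, TFPI2, FBN2 and LTBP1 fell.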

How the data were processed

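RNA of 4 samples, 2 per genotype, was measured on 4 arrays. According to the text the authors deposited with the tables, probe sets were background corrected, quantile normalized and summarised by RMA in Rosetta Resolver (RMA is also in the submitters' processing notes), with no version or genome build stated there. The deposited intensities are linear and rounded by the authors to whole numbers. The deposited series matrix holds the same values. The authors' deposited p-values were not used. Their deposited fold change and rank product pfp are each treated as a score.

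Intensities were log2 transformed. Of 19607 gene names in the table, 18217 matched a RefSeq symbol or synonym (GRCh38.p14), and each gene was represented by its brightest probe set, a choice that concerned ADAM6 and ADAMTSL1 among the members. All 27532 rows, 7978 unnamed probe sets included, were fitted with limma 3.58.1 (R 4.3.3, trend = TRUE, robust = TRUE) and adjusted over all rows by Benjamini-Hochberg. Rounding left 836 rows with no spread in either group. Recovery was tried on 5 simulated sets of rounded arrays for L243P against wild type over 27532 rows. The fit used recovered 31.2% of 2-fold and 88% of 4-fold changes (12 false of 608 calls). The default prior recovered 0.2% and 7.4%. The simulated spread was taken from the brighter rows and applied to all rows, so these rates do not cover the spread seen in dim rows. An exact permutation of 2 against 2 samples cannot go below p = 0.333. Members, lists and tests were chosen with earlier results of these data known. Named in full were members with an adjusted p of at most 0.05 or an unadjusted p under 0.05 and the 8 brightest. In each of the 6 further lists, the called genes were named, or else the 3 of lowest p. Genes outside this rule are marked as such, except where they give a range or a neighbour. The 5 marker lists check the cells.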

Additional observations from a re-analysis of the deposited data

How the results depend on the processing

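The count of called members was 1 in the fit reported. It was 0 with limma's default prior, with a trend but no robust prior, with the replicate block and with the block crossed, an alternative chosen after seeing the data because same-numbered samples deviated oppositely (r = -0.164 over all rows). All of these called 0 of all genes, with 2785, 2777, 1637 and 2537 at an unadjusted p under 0.05. Whether samples of the same number came from the same experiment is not stated, so whether the numbers pair the samples is unknown. The count was 2 (ADAMTS1 and ADAM23) with median centring and without the dimmer 50% of the rows, where 504 (281 higher, 223 lower) and 442 (257 and 185) of all genes were called, against 189 (84 and 105). It was 1 with quantile normalization, a pseudocount of 16, the mean of probe sets and the neighbour shift subtracted, the last with 97 of all genes called. Without each array in turn the count was 0 each time, as for all genes, so this says nothing about stability. The median log2 change of the members lay between -0.1137 and 0.0043 without each array, the highest without L243P replicate 1, and between -0.067 and -0.0307 otherwise. Among the 12 members named in full, 10 kept their direction in all 14 alternatives. The exceptions were ADAM15 and ADAMTS7. ADAM15 was at 0.0016 with median centring and 0.0419 without L243P replicate 1 (-0.0987 without L243P replicate 2), and its lowest value was -0.2797 with the neighbour shift subtracted. ADAMTS7 was at 0.0032 with the neighbour shift subtracted, 0.0437 without wild-type replicate 1 and 0.0659 without L243P replicate 1 (lowest -0.1624 without L243P replicate 2). The genes of the further lists lost their calls in the settings where no gene of all was called, and beyond these LTBP1 lost its call in 4 settings and MET in 1. DCN and all LGI ligands were among the dimmer rows and had no value without them. The series matrix values were not run as an alternative since they are identical. The cause was not tested. Median centring moved all changes by 0.03. The number of arrays limits the precision, and changes of dim genes are held to the whole-number steps.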

Other observations

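Under names starting with ADAM, 4 further probe sets are left out by the naming rule. These are ADAM21P, ADAM5P, ADAM3A and ADAMDEC1, the last a protease with a shortened domain structure. ADAM21P was at 17 and 23 with wild type and 26 and 22 with L243P, ADAM5P at 8 in both against 11 and 8, ADAM3A at 7 and 9 against 7 in both, and ADAMDEC1 at 10 in both against 9 in both. They lie in the dim range and were not tested as members.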
